A study of Rattus norvegicus with 23 samples.

Results

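Cyp4a1, Cyp4a3 and Cyp4a8 are the Cyp4a fatty acid omega-hydroxylase genes of rat kidney that an Affymetrix array of 31042 tested probe sets could measure through probe sets annotated to a single gene. The members were chosen by gene symbol, and they are 3 of 14217 named genes and 4 of the 31042 probe sets. Cyp4a1 was read by 1368934_at, Cyp4a3 by 1370397_at, and Cyp4a8 by 1368607_at and 1393894_at. Another probe set, 1394844_s_at, is annotated to both Cyp4a3 and Cyp4a2, so it was assigned to no gene and is shown beside them.

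The kidneys came from male rats of the SBN/y and SBH/y strains, the hypertension-resistant strain and the hypertension-prone strain of the Sabra rat respectively, aged 4 months and fed standard chow. Rats kept 2 kidneys after a sham operation (5 SBN/y, 6 SBH/y) or had 1 kidney left after removal of the right one (6 SBN/y, 6 SBH/y), and kidneys were taken 3 months after surgery. The labels name no transgene or drug treatment in any group. The title of the series names proteinuria, and the design asks how strain and loss of a kidney bear on gene expression. Each array held 1 labelled kidney sample, and the labels do not spell out that each came from a rat of its own, so the p-values reflect only how much these samples varied, which may be technical.

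Cyp4a enzymes are microsomal cytochromes P450 that add a hydroxyl group to the terminal carbon of fatty acids. From arachidonic acid they make 20-HETE, a lipid mediator known to constrict small renal arteries and to inhibit sodium reabsorption in the tubule, which is why the family is studied in hypertensive rats. Cyp4a transcripts are abundant in the proximal tubule, and several family members are classical targets of the nuclear receptor PPAR alpha. Cyp4a1 is known as an efficient omega-hydroxylase of arachidonic acid, Cyp4a3 is a close relative of Cyp4a2, and Cyp4a8 is known as an androgen-responsive member in rat kidney.

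The genes lie in 1 cluster on rat chromosome 5, where the RefSeq annotation of the GRCr8 assembly places Cyp4a8 at one end, then Cyp4a2 and Cyp4a2l1, then Cyp4a3 and Cyp4a1 side by side. The bases before the start sites of Cyp4a3 and Cyp4a8 are shown because these genes of the same cluster differed between the strains in opposite directions. RefSeq gives them for the BN/NHsdMcwi reference rat, not for the Sabra strains. Both runs go from base 250 to base 51 before the start, 200 bases on the minus strand of GRCr8, at chr5:134352287-134352486 for Cyp4a3 and at chr5:133970277-133970476 for Cyp4a8. Capitals mark the letters AGGTCA, the half-site that PPAR alpha and other nuclear receptors are known to bind, searched on both strands.
Cyp4a3: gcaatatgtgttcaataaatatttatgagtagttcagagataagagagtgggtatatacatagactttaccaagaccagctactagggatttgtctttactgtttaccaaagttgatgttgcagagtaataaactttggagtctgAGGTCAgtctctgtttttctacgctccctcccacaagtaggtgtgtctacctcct
Cyp4a8: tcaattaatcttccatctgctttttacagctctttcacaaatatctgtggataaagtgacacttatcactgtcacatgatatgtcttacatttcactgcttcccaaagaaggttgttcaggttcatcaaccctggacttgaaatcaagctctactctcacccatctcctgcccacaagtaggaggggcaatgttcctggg

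Over the 250 bases before the start, AGGTCA was found in Cyp4a3, at bases 105 to 100 before the start on the gene's strand, and these letters were not in the Cyp4a8 window. Of 33469 promoter windows of that length, 14.1% held AGGTCA on either strand, so a match of these letters is common. A direct repeat of AGGTCA with 1 base between its copies, which contains the shorter motif, was in neither window and in 0.0508% of all. In a global alignment the Cyp4a3 window was 92.5% identical to that of Cyp4a2, which also held AGGTCA at the same distance, and 56.2% identical to that of Cyp4a8. The neighbour Cyp4b1, a P450 of another subfamily, gave 45.0% against Cyp4a3, and the neighbour Cmpk1, which is no P450 gene, gave 42.7%. Against Cyp4a8 these neighbours gave 48.9% and 47.0%. No sequence for Cyp4a1 is shown.

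The arrays read kidney RNA with strong proximal tubule signal. The 14 early proximal tubule markers, among them Slc34a1 and Lrp2, had a mean log2 level of at least 10.17 on each array, while 7 of 8 hepatocyte markers lay under the median probe set (4.66). All 4 Cyp4a probe sets were bright: their means over all arrays exceeded those of 96.4% to 99.7% of the probe sets tested. The 3′ minus 5′ signal of the GAPDH control, a sign of RNA quality, moved with the groups, from 0.32 to 0.39 log2 in SBN/y with 2 kidneys to 0.42 to 0.72 in SBH/y with 1 kidney.

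Strain was the main axis of variation for all 3 genes. Cyp4a1 and Cyp4a8 were higher in SBH/y, Cyp4a3 was higher in SBN/y, and no array of one strain reached the other strain's range at any of the 4 probe sets with the same number of kidneys. Loss of a kidney moved the level of none of them past the test in either strain. All values are log2 signals, so a difference of 1 is a doubling, and levels of different probe sets are not comparable with each other. Whether sequence differences between the strains under the probes shifted these signals was not tested.

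**Figure D1:**
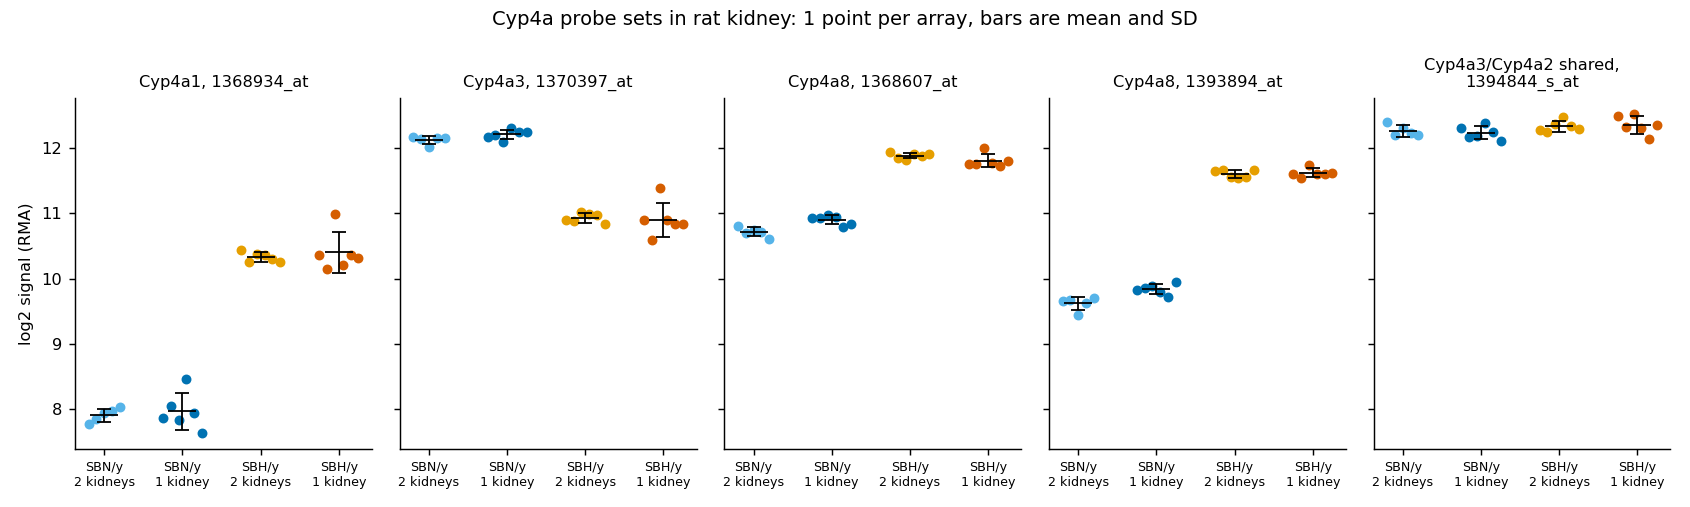
Log2 signal (y axis) of the 4 Cyp4a probe sets and of the probe set shared by Cyp4a3 and Cyp4a2, by group (x axis), with 1 point per array and the mean and SD as bars. Cyp4a1 and both Cyp4a8 probe sets sit higher in SBH/y, Cyp4a3 sits lower, and the shared probe set lies between 12.11 and 12.52 in all groups.

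Among the 4 Cyp4a probe sets, that of Cyp4a1, the arachidonic acid omega-hydroxylase, showed the largest log2 strain difference. In SBN/y with 2 kidneys it read 7.78, 7.85, 7.94, 7.98 and 8.03, and in SBH/y with 2 kidneys it ran from 10.25 to 10.44 around a median of 10.33. With 1 kidney SBN/y ran from 7.64 to 8.47 (median 7.91) and SBH/y from 10.14 to 10.99 (median 10.34). All 12 SBH/y arrays were thus far above all 11 SBN/y arrays. The strain difference was 2.42 ± 0.12 (SE, limma adjusted p = 2.72e-14) with 2 kidneys, 5.34-fold, and 2.43 ± 0.12 (adjusted p = 7.38e-15) with 1 kidney, 5.37-fold. It ranked as number 8 and number 10 from the top among 31042 probe sets.

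Cyp4a3 went the other way. SBN/y with 2 kidneys read 12.16, 12.13, 12.02, 12.15 and 12.15, and SBH/y with 2 kidneys ran from 10.83 to 11.02 (median 10.93). With 1 kidney SBN/y ran from 12.09 to 12.30 (median 12.22) and SBH/y from 10.59 to 11.38 (median 10.86). Every SBH/y array therefore lay under every SBN/y array. SBH/y was lower by -1.19 ± 0.09 (SE, limma adjusted p = 4.26e-11) with 2 kidneys, 2.28-fold, and by -1.30 ± 0.08 (adjusted p = 1.77e-12) with 1 kidney, 2.47-fold. The probe set shared by Cyp4a3 and Cyp4a2 did not follow: with 2 kidneys the SBN/y arrays averaged 12.26 ± 0.09 (SD, n = 5), the SBH/y arrays averaged 12.33 ± 0.08 (SD, n = 6), and the groups overlapped. The interval of its strain difference ran from -0.06 to 0.21 with 2 kidneys and from -0.01 to 0.25 with 1 (limma adjusted p = 0.631 and 0.258).

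Within an array with 2 kidneys, SBN/y gave -0.14 ± 0.12 (SD, n = 5) for Cyp4a3 minus the shared probe set, and SBH/y gave -1.40 ± 0.05 (SD, n = 6). With 1 kidney the values were -0.03 ± 0.10 and -1.45 ± 0.21 (SD, n = 6 each). The strain changed this gap by -1.26 and -1.42, with exact two-sided permutation p = 0.00433 and p = 0.00216, the smallest these group sizes allow (adjusted over 8 such tests, 0.00866 and 0.00864). The probe sets thus did not report the same strain difference. Cyp4a2 had no probe set of its own, so how the signal of the shared probe set divides between these genes was not measured.

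Cyp4a8 was higher in SBH/y at both of its probe sets. At 1368607_at SBN/y with 2 kidneys read 10.80, 10.70, 10.75, 10.72 and 10.61, against 11.81 to 11.94 (median 11.89) in SBH/y. At 1393894_at the same SBN/y arrays read 9.65, 9.67, 9.45, 9.62 and 9.71, against 11.54 to 11.66 (median 11.61) in SBH/y. No values overlapped. With 1 kidney SBN/y ran from 10.79 to 10.98 and SBH/y from 11.72 to 12.00 at 1368607_at. At 1393894_at the ranges were 9.72 to 9.95 and 11.54 to 11.74. With 1 kidney, too, the strains stood apart at both probe sets.

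The size of the Cyp4a8 difference depended on the probe set. With 2 kidneys it was 1.16 ± 0.06 (SE, limma adjusted p = 1.07e-14) at 1368607_at, 2.24-fold, and 1.98 ± 0.06 (adjusted p = 9.18e-20) at 1393894_at, 3.95-fold. With 1 kidney it was 0.90 ± 0.05 (limma adjusted p = 4.44e-13), 1.87-fold, and 1.78 ± 0.05 (adjusted p = 3.18e-19), 3.44-fold. Within an array, SBN/y gave -1.10 ± 0.15 (SD, n = 5) with 2 kidneys and -1.06 ± 0.09 (SD, n = 6) with 1 for 1393894_at minus 1368607_at. The same quantity was -0.28 ± 0.06 and -0.18 ± 0.05 in SBH/y (SD, n = 6 each). The strains differed in this gap by 0.82 and 0.88 (exact two-sided permutation p = 0.00433 and p = 0.00216, adjusted 0.00866 and 0.00864 over the 8 tests). Both probe sets gave the same direction, and the fold is not settled by them. After uninephrectomy the gap differed by 0.09 in SBH/y (exact two-sided permutation p = 0.0195, adjusted 0.0312), which passed, and by 0.03 in SBN/y (exact two-sided permutation p = 0.667), which did not.

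Against these results, 9.07% of all probe sets differed between the strains at a limma adjusted p under 0.05 with 2 kidneys and 14.0% with 1 kidney. The groups did not overlap at 7.57% and 7.62% of probe sets. All 4 Cyp4a probe sets passed in both comparisons. Calls at least 2-fold higher in SBH/y made up 0.264% of probe sets with 2 kidneys and 0.425% with 1, and calls at least 2-fold lower 0.364% and 0.393%. Cyp4a1, Cyp4a3 and 1393894_at of Cyp4a8 were past 2-fold in both comparisons, while 1368607_at was past it with 2 kidneys and at 1.87-fold with 1. With the GAPDH measure as a covariate the strain difference with 2 kidneys was 2.63 for Cyp4a1, -1.04 for Cyp4a3, and 1.20 and 2.03 for Cyp4a8.

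**Figure D2:**
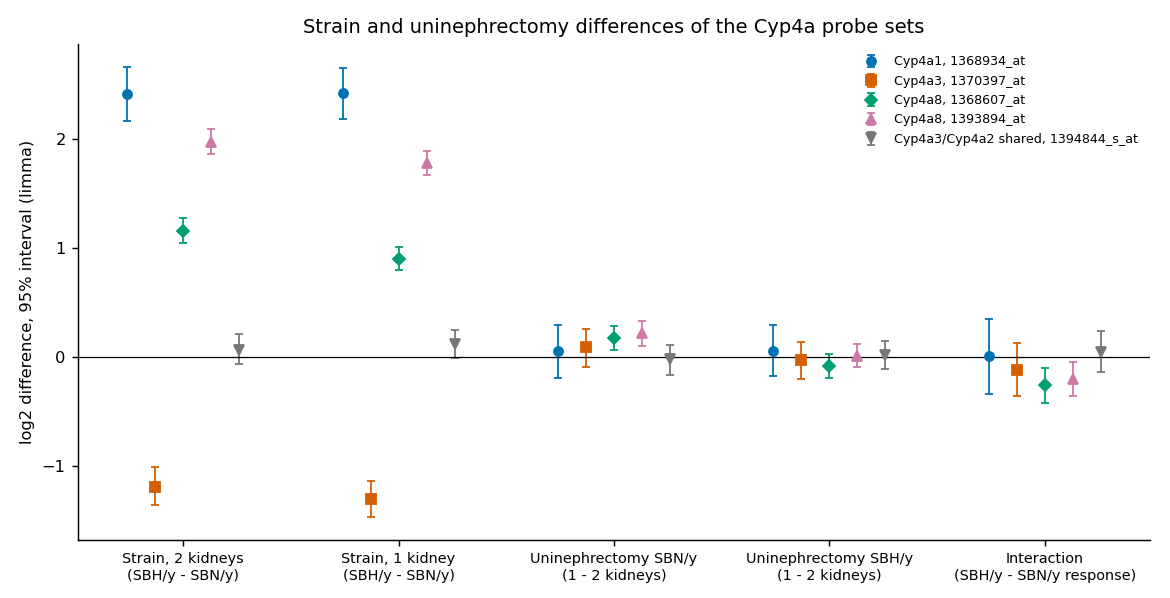
Log2 differences (y axis) with 95% intervals from the limma fit for the 4 Cyp4a probe sets and the shared probe set in 5 comparisons (x axis). The strain differences of the 4 probe sets lie between -1.30 and 2.43 and away from 0, while the uninephrectomy differences lie between -0.08 and 0.22.

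After uninephrectomy, the levels stayed near those of the same strain with 2 kidneys. Cyp4a1 differed by 0.06 in SBN/y (95% interval -0.19 to 0.30, limma adjusted p = 0.976) and by 0.06 in SBH/y (-0.17 to 0.30, adjusted p = 0.874). Cyp4a3 differed by 0.09 in SBN/y (-0.09 to 0.26, adjusted p = 0.917) and by -0.03 in SBH/y (-0.20 to 0.14, adjusted p = 0.923). These intervals leave room for a change of up to 0.30 log2 in Cyp4a1 and up to 0.26 in Cyp4a3. Of all probe sets, 0.168% passed after uninephrectomy in SBN/y and 5.04% in SBH/y, and 0 of the 4 Cyp4a probe sets passed in either strain. At an unadjusted p under 0.05, both Cyp4a8 probe sets passed in SBN/y, as did 7.62% of all probe sets, and 0 of 4 passed in SBH/y, where 15.6% of all did.

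Cyp4a8 came closest to a uninephrectomy difference, in SBN/y. At 1368607_at it averaged 10.72 ± 0.07 (SD, n = 5) with 2 kidneys and 10.90 ± 0.07 (SD, n = 6) with 1. At 1393894_at the means were 9.62 ± 0.10 and 9.84 ± 0.08, and the highest of the 5 sham arrays, 9.71, lay just under the lowest of the other 6, 9.72. Such separation of the groups was found at 1.26% of all probe sets. The differences were 0.18 ± 0.06 (SE, limma adjusted p = 0.270) and 0.22 ± 0.06 (adjusted p = 0.15), with unadjusted p of 0.00293 and 0.000637. The GAPDH measure was also higher in the SBN/y rats with 1 kidney, and with it as a covariate the differences were 0.22 and 0.26 (adjusted p = 0.156 and 0.0886). With a trended and robust variance the second passed, at adjusted p = 0.0247.

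In SBH/y the Cyp4a8 differences were -0.08 (95% interval -0.19 to 0.03) and 0.01 (-0.09 to 0.12). The test of the difference between the strains' responses gave -0.26 ± 0.08 (SE, limma adjusted p = 0.201) and -0.20 ± 0.08 (adjusted p = 0.422) for the Cyp4a8 probe sets, where 0.254% of all probe sets passed. For Cyp4a1 it gave 0.01 ± 0.17 and for Cyp4a3 -0.12 ± 0.12 (adjusted p = 0.997 and 0.888). No member passed, and at an unadjusted p under 0.05 in the limma fit both Cyp4a8 probe sets did, as did 8.06% of all probe sets. The value for 1368607_at became -0.30 with adjusted p = 0.0474 without replicate 3 of SBH/y with 1 kidney, and its adjusted p was 0.0396 with a trended and robust variance. In order of level, Cyp4a1 and Cyp4a8 read SBN/y under SBH/y and Cyp4a3 the reverse, and within a strain the groups with 2 kidneys and with 1 were not told apart by the test.

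Within the groups with 1 kidney, single arrays stood out. Replicate 3 of SBH/y with 1 kidney read 10.99 for Cyp4a1, where the other 5 arrays of its group reached at most 10.36. The same array read 11.38 for Cyp4a3 against at most 10.90 elsewhere in the group, and 12.00 and 11.74 for Cyp4a8 against at most 11.80 and 11.62. It was thus the highest of its group for all 3 genes, also for Cyp4a3, the gene that is low in SBH/y. In SBN/y with 1 kidney, replicate 4 was highest for Cyp4a1 (8.47, the others at most 8.05) and Cyp4a3 (12.30, the others at most 12.25), but not for Cyp4a8.

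Deviations from the group means were then compared across the 23 arrays, as a description, since arrays of a group share their strain and surgery. For Cyp4a1 and Cyp4a3 the Pearson r of these deviations was 0.71, and 0.38 over the 22 arrays left without replicate 3 of SBH/y with 1 kidney. For Cyp4a1 and 1368607_at of Cyp4a8 it was 0.49, and 0.07 without that array. For the Cyp4a8 probe sets with each other it was 0.27 and -0.01. The shared movement of the members within groups therefore rested largely on 1 array.

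The 5 genes whose deviations were most like those of Cyp4a1 included enzymes of fatty acid oxidation. They were Eci1, the mitochondrial enoyl-CoA isomerase (r = 0.916), the pantetheinase gene Vnn1 (0.900), Adtrp (0.886), the dienoyl-CoA isomerase gene Ech1 (0.852) and the acyl-CoA thioesterase gene Acot7 (0.834). Without replicate 3 of SBH/y with 1 kidney these values were 0.845, 0.806, 0.792, 0.714 and 0.661. In that array Eci1 read 10.89, where the other 5 lay between 9.86 and 10.07, and Vnn1 read 9.30 against 7.82 to 8.32. Replicate 4 of SBN/y with 1 kidney read 10.12 for Eci1 and 8.49 for Vnn1, also the highest of its group. For Cyp4a3 the list was Aco1 (0.851), Acaa2 (0.841), Adtrp, Eci1 and Adh1c, whose values fell to between 0.457 and 0.565 without that array. For Cyp4a8, taken at its brighter probe set 1368607_at alone, it was led by Agmat (0.812) and the carnitine octanoyltransferase gene Crot (0.759), which were 0.671 and 0.621 without it.

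**Figure D3:**
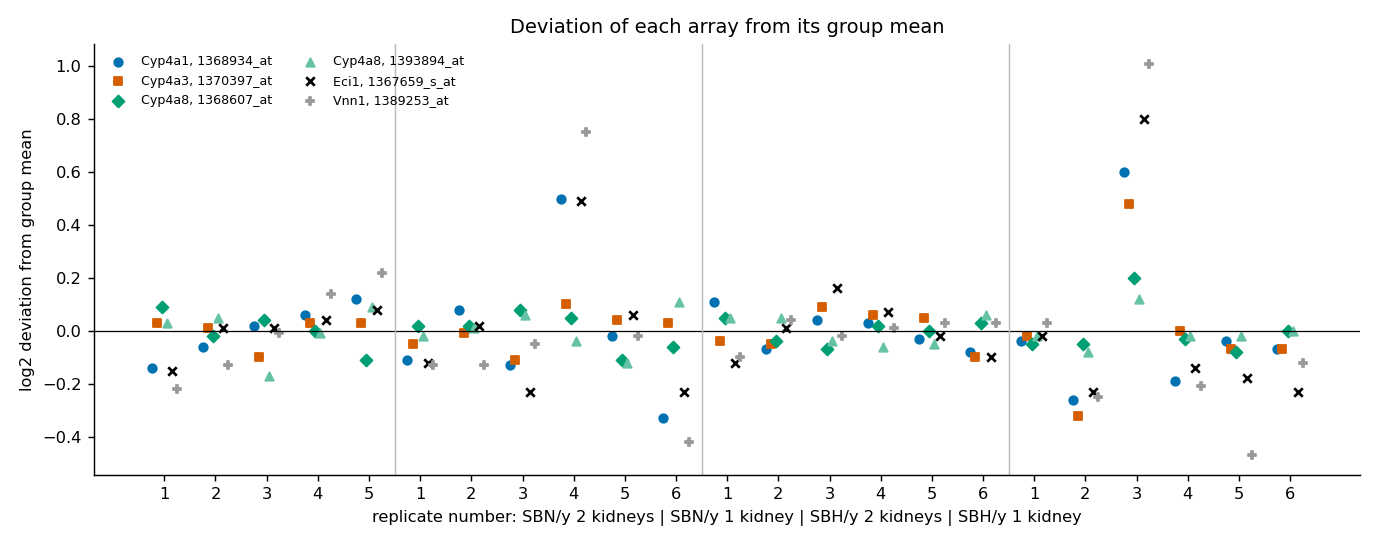
Log2 deviation of each array from its group mean (y axis) for the 4 Cyp4a probe sets, Eci1 and Vnn1, with arrays by group and replicate number on the x axis. Replicate 3 of SBH/y with 1 kidney lies highest, at 0.60 for Cyp4a1, 0.80 for Eci1 and 1.01 for Vnn1, and replicate 4 of SBN/y with 1 kidney is raised for Cyp4a1, Eci1 and Vnn1.

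Both arrays were also high for the list of PPAR alpha and its targets, 36 measured genes without the Cyp4a members. Beside the targets, the list includes Ppara, Rxra and Ppargc1a. Replicate 3 of SBH/y with 1 kidney was the highest array of its group for 28 of 36 (77.8%), with a median deviation of 0.31, where it was highest for 13.6% of all genes. Replicate 4 of SBN/y with 1 kidney was highest for 27 of 36 (75.0%, median 0.21), where it was highest for 2837 of all 14217 genes. These arrays were picked out by their Cyp4a1 values, so the shares describe them and carry no test. Some other lists were high in them too, and the myeloid list went opposite ways. Replicate 3 of SBH/y with 1 kidney was highest for 7 of 14 early proximal tubule markers and 6 of 13 markers of the straight part. It was highest for 0 of 8 myeloid markers, with a median deviation of -0.18. Replicate 4 of SBN/y with 1 kidney was highest for 7 of 8 myeloid (median deviation 0.36) and 6 of 9 collecting duct markers. The part of other cells in these values was not tested.

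By the values themselves, rather than deviations, likeness mostly reflected strain. The genes closest to Cyp4a1 over the 23 arrays were Enpp6 and Clrn3 (Pearson r = 0.981 each), Cyp4a8 itself (0.980), the peroxisomal membrane protein gene Pxmp4 (0.978) and Rnf6 (0.976). Clrn3 (0.978) and Enpp6 (0.974) were also near Cyp4a8 at 1368607_at, with P4ha2 (0.975) and the antithrombin gene Serpinc1 (0.973). The closest to Cyp4a3 were the carboxylesterase gene Ces1e (0.974), Ephx2 (0.973), Apoc2 (0.971), RT1-Bb (0.971) and Ly6i (0.969), all lower in SBH/y. Ephx2 encodes the soluble epoxide hydrolase, which breaks down epoxides of arachidonic acid, and was lower by -0.79 ± 0.07 (SE, limma adjusted p = 1.33e-09) with 2 kidneys.

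Measured neighbours of the cluster showed small strain differences. Of the 5 protein-coding genes on the Cyp4a8 side, Cmpk1, Stil, Tal1 and Pdzk1ip1 were measured and differed by -0.03 to 0.13 with 2 kidneys (limma adjusted p between 0.218 and 0.983). On the Cyp4a1 side, Cyp4b1 (-0.13), Efcab14 (0.30, limma adjusted p = 0.0573) and Atpaf1 (0.01) did not pass with 2 kidneys, though Efcab14 passed without replicate 2 or 5 of SBH/y with 1 kidney (adjusted p = 0.00579 and 0.0362) or replicate 3 of SBN/y with 2 kidneys (0.0391). With 1 kidney Cyp4b1 was lower in SBH/y by -0.27 ± 0.08 (SE, limma adjusted p = 0.0144) and Efcab14 higher by 0.47 ± 0.09 (adjusted p = 0.000598). Both differences were smaller than those of the adjoining Cyp4a1, at 2.43.

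Other Cyp4 genes showed smaller strain differences than any Cyp4a probe set annotated to a single gene. Of 13 listed, 7 were measured, and with 2 kidneys 1 was higher in SBH/y and 0 lower, with a median difference of -0.00. Over all 14217 genes the median was 0.01, and 11.0% were called with 2 kidneys and 17.7% with 1, so 1 of 7 is near the background. It was Cyp4v3, another fatty acid hydroxylase (0.60 ± 0.08, SE, limma adjusted p = 2.51e-06). Cyp4f1, which also omega-hydroxylates arachidonic acid, had a mean of 10.47 in SBN/y and 10.39 in SBH/y with 2 kidneys. It fell after uninephrectomy in SBH/y by 0.27 ± 0.05 (SE, adjusted p = 0.00211), unlike the Cyp4a members, and was then lower than in SBN/y by -0.33 ± 0.05 (adjusted p = 4.9e-05). The difference between its responses in the strains did not pass (-0.26 ± 0.08, adjusted p = 0.233).

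Among 12 measured genes of 20-HETE supply, P450 electron transfer and its receptor, 2 were higher and 2 lower in SBH/y with 2 kidneys. Their median difference was 0.02, and 11.0% of all genes were called in this comparison. Por, the reductase that feeds electrons to microsomal P450s, was lower by -0.36 ± 0.07 (SE, limma adjusted p = 0.000278), and the cytochrome b5 gene Cyb5b by -0.57 ± 0.07 (adjusted p = 4.8e-07). The phospholipase gene Pla2g2a was higher by 0.39 ± 0.11 and the heme oxygenase gene Hmox1 by 0.51 ± 0.11, both at dim mean levels under the median probe set in both strains. Gpr75, a receptor of 20-HETE, was dim, between means of 4.16 and 4.21, and showed no call in any comparison. Of 14 other enzymes of arachidonic acid, 3 were higher and 1, Ephx2, lower with 2 kidneys. The higher ones were the epoxygenase gene Cyp2c23 (0.31 ± 0.05), Ephx1 (0.30 ± 0.06) and the cyclooxygenase gene Ptgs1 (0.34 ± 0.10). The calls of Pla2g2a and Ptgs1 did not survive the loss of single arrays: Pla2g2a lost its call with any of 5 arrays left out (limma adjusted p up to 0.115, without replicate 3 of SBN/y), and Ptgs1 with any of 4 (up to 0.0976, without replicate 4 of SBN/y).

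**Figure D4:**
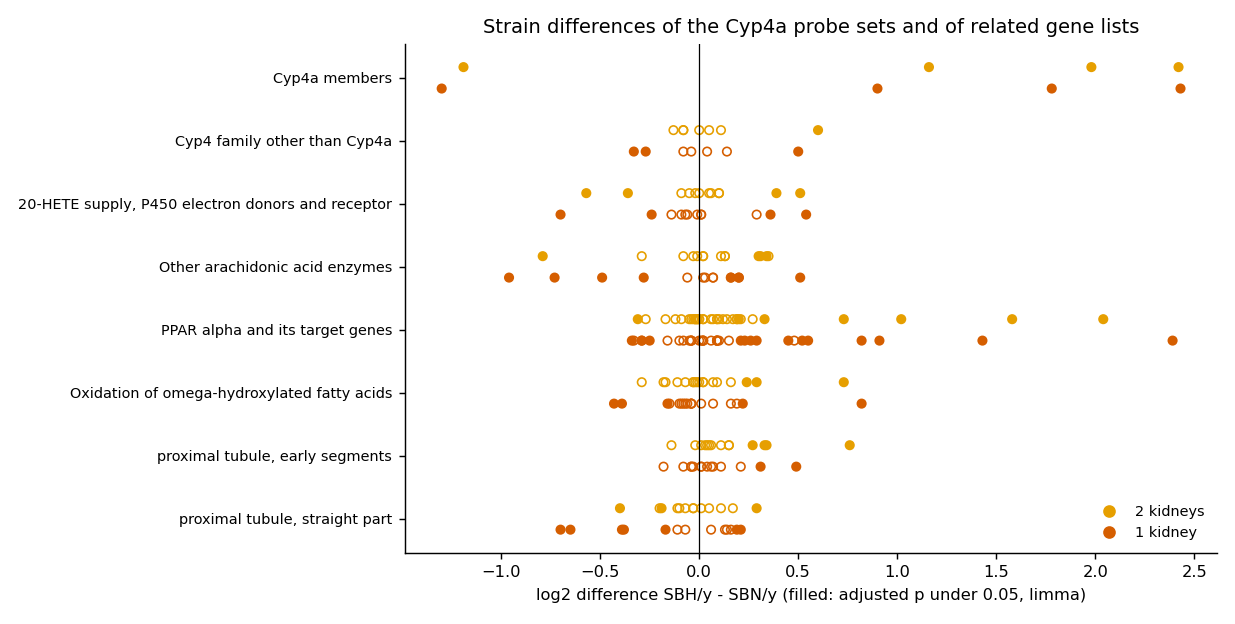
Log2 difference between SBH/y and SBN/y (x axis) for the 4 Cyp4a probe sets and for each measured gene of 7 lists (y axis), with 2 kidneys and with 1, filled where the limma adjusted p was under 0.05. The Cyp4a probe sets lie at -1.19, 1.16, 1.98 and 2.42 with 2 kidneys, while the other Cyp4 genes lie between -0.13 and 0.60.

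PPAR alpha and its targets differed between the strains gene by gene. Beside the targets, the list includes Ppara itself, Rxra and Ppargc1a. Of 36 measured, 6 were higher and 1 lower in SBH/y with 2 kidneys, and 11 and 4 with 1 kidney, with medians of 0.04 and 0.07. Ppara and Ppargc1a were among the 4 lower ones with 1 kidney. Of all genes, 11.0% and 17.7% were called in these comparisons. The largest differences with 2 kidneys were those of Pxmp4 (2.04 ± 0.11, SE), the lipoprotein lipase gene Lpl (1.58 ± 0.08) and the acyl-CoA thioesterase genes Acot3 (1.02 ± 0.13) and Acot4 (0.73 ± 0.10). Hadhb, a subunit of the mitochondrial trifunctional protein, was lower by -0.31 ± 0.05, and Eci1, Vnn1 and Ech1, which varied with Cyp4a1 within groups, differed by 0.09, -0.02 and -0.02 with no call. With 1 kidney, where replicate 3 of SBH/y is included, Eci1 (0.45 ± 0.13, limma adjusted p = 0.0176) and Vnn1 (0.55 ± 0.17, adjusted p = 0.0325) were higher in SBH/y. Vnn1 lost its call with any of 7 arrays left out, among them that array (0.35, adjusted p = 0.0836), replicate 1 of its group (0.0602) and replicates 1, 2, 3, 5 and 6 of SBN/y with 1 kidney (0.0551 to 0.0964). Eci1 missed the threshold without replicate 3 or 6 of SBN/y with 1 kidney (adjusted p = 0.0507 and 0.0501). Ppara itself was dim, between 3.40 and 3.76 in the group means. With 1 kidney it was lower in SBH/y by -0.34 ± 0.11 (SE, limma adjusted p = 0.0499), just under the threshold. Of 18 genes for the further oxidation of omega-hydroxylated fatty acids, 3 were higher in SBH/y with 2 kidneys and 0 lower. This list shares members with the last. The 3 were Acot4, Slc27a2 (0.29 ± 0.06) and Crot (0.24 ± 0.08). The Crot call (limma adjusted p = 0.0418) ended with any of 8 arrays left out. Its adjusted p was highest, at 0.114, when replicate 2 of the SBN/y sham group was dropped. In the comparison with 1 kidney, 2 of the 18 were higher and 3 lower, with a median of -0.05. Acot4 (0.82 ± 0.10, SE) and Crot (0.22 ± 0.07) were the higher ones. Acox2 (-0.43 ± 0.09, SE), Acsl3 (-0.39 ± 0.11) and Scp2 (-0.16 ± 0.05) were lower.

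Markers of the proximal tubule, a segment known to be rich in Cyp4a, differed by less than each of the 4 Cyp4a probe sets in the same strain comparison. In whole kidney, fewer cells of a type and less RNA per cell cannot be told apart. Of 14 early proximal tubule markers, 4 were higher and 0 lower in SBH/y with 2 kidneys, with a median of 0.08, led by the lactate transporter gene Slc5a12 (0.76 ± 0.11, SE). The shares of all genes called between the strains, for this and the next marker counts between the strains, were 11.0% with 2 kidneys and 17.7% with 1. With 2 kidneys their summed linear signal lay between 24620 and 26830 in SBN/y, against 26130 to 28130 in SBH/y. With 1 kidney it was 24790 to 26820 against 25320 to 27830. Of 13 markers of the straight part, 1 was higher and 2 lower with 2 kidneys, with a median of -0.03, and their summed signal was 20090 to 21300 in SBN/y, against 19930 to 20690 in SBH/y. With 1 kidney the counts were 2 higher and 5 lower, and the sums 19860 to 20850 against 18100 to 19720. The lower ones were led by Slc22a24 (-0.70 ± 0.12, SE) and Acsm3 (-0.65 ± 0.07), and the larger of the higher ones was Agt (0.21 ± 0.07). The 8 hepatocyte markers summed to between 209.0 and 239.7 over all arrays with 2 kidneys, and to 227.0 to 249.0 in SBN/y against 207.3 to 247.3 in SBH/y with 1 kidney. Of 8 myeloid markers, 3 were higher in SBH/y with 2 kidneys and 6 with 1, with sums of 1648 to 1802 against 2545 to 2822 and of 1762 to 2587 against 3347 to 4203. Fat tissue markers were lower in SBH/y for 3 of 7 with 2 kidneys, with sums of 378.4 to 715.4 in SBN/y and 340.3 to 451.5 in SBH/y, and the part of myeloid cells and fat in the Cyp4a differences was not tested.

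The loss of a kidney changed injury markers where it left the Cyp4a genes without a call. Of all genes, 7.16% were called after uninephrectomy in SBH/y and 0.253% in SBN/y. Of 7 proximal tubule injury markers, 4 rose in SBH/y. The summed signal of the 7 in SBH/y was 2219 to 2559 with 2 kidneys and 4835 to 8774 with 1. Cyp4a1 ran from 10.25 to 10.44 and from 10.14 to 10.99 on the same arrays. Havcr1, the injury marker also known as Kim-1, rose by 3.20 ± 0.24 (SE, limma adjusted p = 1.67e-09) in SBH/y and by 1.37 ± 0.25 (adjusted p = 0.0144) in SBN/y, while the Cyp4a1 differences were 0.06 in both. The array with the highest Cyp4a1 was the highest of its group for 0 of the 7 injury markers. It was highest for 13.6% of all genes, so 0 of 7 is near the background. Among other enzymes of arachidonic acid, Cyp2c11, a male-specific epoxygenase of rat liver and kidney, fell by 1.57 ± 0.16 (adjusted p = 3.71e-07) in SBH/y and with a weaker call Ptgs1 by 0.33 ± 0.09 (adjusted p = 0.0327, a call that ended with any of 7 arrays left out, at up to 0.0909 without replicate 3 of SBH/y with 1 kidney). Of the PPAR alpha list, the lipid droplet gene Plin2 rose by 0.26 ± 0.06 and the coactivator gene Ppargc1a fell by 0.33 ± 0.06 in SBH/y (adjusted p = 0.0116 and 0.000804). In SBN/y 0 of 36 passed, near the share of all genes, 0.253%. Of the supply list, Hmox1 rose by 0.56 ± 0.11 in SBN/y and by 0.35 ± 0.10 in SBH/y (limma adjusted p = 0.0176 and 0.0436). Its group means lay under the median probe set except in SBH/y with 1 kidney (4.82). The call in SBN/y ended with any of 3 arrays left out, at up to 0.0789 without replicate 2 of SBN/y with 2 kidneys. That in SBH/y ended with any of 12, at up to 0.143 without replicate 1 of SBH/y with 1 kidney. The phospholipase gene Pla2g6 fell by 0.27 ± 0.07 in SBH/y (adjusted p = 0.0100).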

How the data were processed

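Kidney RNA was measured on 23 arrays. The authors deposited log2 values per probe set, for which GCOS and RMA are named, without versions, per the submitters' processing notes. RMA usually includes quantile normalization, so changes in total mRNA could not be seen, and array medians lay between 4.65 and 4.69. After removal of 57 control probe sets, 31042 were tested with limma 3.58.1 under R 4.3.3 in 1 model of the 4 group means, two-sided, with Benjamini-Hochberg adjustment over all probe sets and a threshold of 0.05. Intervals are 95% intervals of that fit. Array annotation gave 1 symbol to 20826 probe sets, several to 436 and none to 9780. A listed gene was read by its brightest probe set, and 170 of 189 list entries were measured. On simulated data for uninephrectomy in SBH/y over 31042 probe sets, the fit recovered 91 of 100 changes of 0.5 log2 and 100 of 100 of 1 log2, with 12 false calls. The simulated noise was normal and independent between probe sets, without shifts shared by the genes of an array. Smaller changes and changes in SBN/y were not simulated.

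The members, lists and tests were chosen with earlier results of these data known. Every member probe set was named, with the 5 genes most like each member at its brightest probe set, those measured of the 5 protein-coding genes on each side of the cluster, and up to 4 genes of a list past the threshold with the largest differences, or up to 2 with the smallest p where none passed. Some further list members were named after their values were seen. Calls of named genes outside the family, though not every one, were checked with each array left out. The deposited values carry no probe sequences. Cross-hybridisation between the Cyp4a paralogs and sequence differences between the strains under the probes were therefore not examined. Alternatives were a trended and robust variance, a second quantile normalization, removal of dim probe sets, fits of the compared groups alone, a block for replicate number, leaving out single arrays, and a GAPDH covariate. Same-numbered arrays of different groups had deviations correlated between -0.269 and 0.259, so the numbers were not taken to pair samples. The number of arrays limits the precision, and scan dates were not used here.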

Additional observations from a re-analysis of the deposited data

Results flagged for a closer look

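In replicate 3 of SBH/y with 1 kidney, Cyp4a1 read 10.99, and the gap to the next array (10.36) was 0.742 of the group's range. The same array read 12.00 for Cyp4a8 at 1368607_at, with a gap to 11.80 of 0.721 of the range, where 0.625 is the critical value for 6 arrays. Cyp4a3 read 12.02 in replicate 3 of SBN/y with 2 kidneys, next to 12.13, a gap of 0.809 of a range that spans only 0.14 log2 (critical value 0.710 for 5 arrays). Of 20 sets of arrays examined, 3 stood out, where chance picks about 1 in 20. Leaving out any of these arrays ended no strain call.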

How the results depend on the processing

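The strain differences of the 4 Cyp4a probe sets kept their direction and passed the test under every alternative run: over the arrays left out in turn they ranged with 2 kidneys from 2.38 to 2.45 (Cyp4a1), -1.21 to -1.17 (Cyp4a3), 1.14 to 1.19 and 1.94 to 2.01 (Cyp4a8), and with 1 kidney from 2.31 to 2.53, -1.40 to -1.24, 0.86 to 0.92 and 1.76 to 1.80. Of the uninephrectomy differences, 1393894_at of Cyp4a8 passed in SBN/y with a trended and robust variance (0.22, adjusted p = 0.0247), and so did the interaction of 1368607_at (-0.26, adjusted p = 0.0396). The latter ranged from -0.30 to -0.23 over the arrays left out. Differences near 0 changed sign without a call: the Cyp4a1 interaction was -0.02 with the replicate block and -0.04 with the GAPDH covariate, and Cyp4a3 in SBH/y was 0.07 with that covariate. With 1 array left out, the Cyp4a1 interaction ranged from -0.11 to 0.11, its uninephrectomy difference from -0.04 to 0.12 in SBN/y and -0.06 to 0.12 in SBH/y, and in SBH/y Cyp4a3 ranged from -0.13 to 0.03 and 1393894_at from -0.01 to 0.03. The replicate block changed no call of a Cyp4a probe set, and 2 of 23 arrays correlated best with their own number. Over all probe sets, 52 passed after uninephrectomy in SBN/y (24 to 78 with 1 array left out) and 79 for the interaction (52 to 157, and 124 each with a trended and robust variance or the GAPDH covariate). Leaving out SBN/y arrays with 2 kidneys gave 32 (replicate 1), 34 (replicate 2), 24 (replicate 3) and 25 (replicate 4) for the first count, and leaving out those with 1 kidney gave 26 (replicate 1) and 24 (replicate 3). For the second, the SBN/y arrays with 1 kidney gave 131 (replicate 4) and 52 (replicate 6), and the SBH/y arrays with 1 kidney gave 157 (replicate 3) and 133 (replicate 5). The causes of these shifts were not tested.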
